A study of Mus musculus with 15 samples.

Results

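Cmah and 9 further genes of sialic acid metabolism were followed in RNA sequencing of cultured mouse podocytes under mechanical stretch. The 10 genes were Cmah, Gne, Nans, Nanp, Cmas, St8sia2, St3gal1, St3gal4, St6gal1 and Neu1. They were taken as a named set and found by Ensembl identifier among the 55416 genes with a deposited count. Cmah was among the largest rises in the comparison of low stretch with no stretch, so the set was chosen by values of that comparison among others. Values from it are given below as a description, without a test, for these 10 genes.

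All 15 cultures were of SVI, a conditionally immortalised mouse podocyte line, differentiated and seeded on flexible silicone membranes. Experiment 1 held 6 cultures under low stretch, with a membrane deflection of 5 to 6 mm on the sample labels, and 3 unstretched cultures. Experiment 2 held 3 cultures under high stretch, with a deflection of 7 to 8 mm, and 3 unstretched cultures of its own. The labels name no genotype, agent or treatment besides stretch, and a single cell line is the only source. Nothing in the labels says how the cultures of a group were separated, so p-values measure the spread between these samples, which may be technical. Amplitude and experiment change together, so they cannot be told apart.

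Sialic acids are acidic sugars that cap the glycans of cell-surface proteins and lipids. Gne, Nans and Nanp build the common sialic acid, N-acetylneuraminic acid, Cmas activates it with cytidine monophosphate, and Cmah hydroxylates the activated sugar to the N-glycolyl form, which many mammals make and humans do not. Sialyltransferases of the St3gal, St6gal, St6galnac and St8sia families then attach the activated sugar, and sialidases such as Neu1 remove it. Podocyte foot processes carry a thick sialylated coat, in which podocalyxin (Podxl) is a main component, and its negative charge is known for helping to keep the spaces between foot processes open.

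Total counts ranged from 172.2 to 396.7 M (megacounts) per sample, and mitochondrial genes took between 1.139% and 5.205% of them. Mean levels reached 1 TPM (transcripts per M, a level per transcript length) for 4 of 7 podocyte markers, while Nphs1 and Tcf21 had means under 0.1 TPM. The summed podocyte level overlapped between groups in both experiments. Within that list Wt1 was at 1.30 to 4.41 TPM under low stretch against 4.60 to 6.78 TPM, and at 0.342 to 0.379 TPM under high stretch against 0.908 to 4.75 TPM. Of 6 leukocyte markers, Cd68 alone averaged 1 TPM or more, and Ptprc, Adgre1, Cd3e, Cd79a and Tyrobp had means under 0.1 TPM. The summed leukocyte level was 1.26 to 1.73 TPM under low stretch against 1.75 to 1.82 TPM, and 2.04 to 2.20 TPM under high stretch against 0.892 to 1.59 TPM. None of 5 endothelial markers and 3 of 4 parietal epithelial markers averaged 1 TPM or more, the latter with a sum of 197 to 370 TPM over all cultures. The summed level of 4 proximal tubule markers was 55.6 to 134 TPM under low stretch against 166 to 351 TPM without it. Under high stretch it was 43.6 to 65.8 TPM against 253 to 428 TPM. Nearly all of it came from Aqp1 and Lrp2. In experiment 2 Lrp2 overlapped, at 17.5 to 37.4 against 22.3 to 70.8 TPM, while Aqp1 was at 13.2 to 32.5 against 182 to 395 TPM. Slc5a2, at a low level, was lower without overlap in both experiments. The summed level of 5 mesangial or fibroblast markers, nearly all from Acta2, was 1720 to 4110 TPM under low stretch against 1430 to 2330 TPM, and 5640 to 7650 TPM under high stretch against 2620 to 4920 TPM. In the same list Pdgfrb was lower under stretch, at 14.5 to 22.8 against 27.4 to 34.7 TPM in experiment 1 and 22.8 to 23.5 against 31.0 to 35.1 TPM in experiment 2, and Col3a1, under 0.2 TPM throughout, was also lower without overlap in both. The part of these marker shifts in the results below was not tested. In bulk RNA, fewer cells of a type and less RNA per cell cannot be told apart.

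Cmah (ENSMUSG00000016756) lies at chr13:24327404-24477377 on the plus strand of GRCm38, with 10 annotated transcripts. In high-stretch cultures the deposited transcript table lists Cmah mostly under a transcript with a downstream start. In the other groups it lists Cmah mostly under transcripts with the upstream start. These transcripts also differ in their last exon, and which start was used was not tested. The 250 bases before the upstream and the downstream start are shown, from RefSeq on GRCm38.p6, plus strand, 5′ to 3′. The upstream window is chr13:24327154-24327403 and the downstream window is chr13:24414872-24415121. Capitals mark a match to the letters CCAAT.

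Cmah upstream start: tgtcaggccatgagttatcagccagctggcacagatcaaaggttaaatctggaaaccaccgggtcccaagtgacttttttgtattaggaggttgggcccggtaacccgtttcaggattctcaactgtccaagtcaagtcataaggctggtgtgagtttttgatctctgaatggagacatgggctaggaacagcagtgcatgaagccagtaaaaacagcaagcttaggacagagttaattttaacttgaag

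Cmah downstream start: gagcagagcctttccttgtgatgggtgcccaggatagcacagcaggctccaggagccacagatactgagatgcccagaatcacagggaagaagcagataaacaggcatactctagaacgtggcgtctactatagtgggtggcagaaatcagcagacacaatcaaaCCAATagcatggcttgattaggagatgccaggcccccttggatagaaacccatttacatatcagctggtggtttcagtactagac

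The GC content was 45.6% in the upstream window and 49.6% in the downstream window, beside a median of 52.4% over 32851 promoter windows of the same length. CCAAT occurred in the downstream window at positions -85 to -81 before the start and was absent from the upstream window, and 33.8% of all windows held it on either strand. TGANTCA (the AP-1 motif) had no match in either window and occurred in 6.75% of all windows. GGAATG (a TEAD motif) had no match in either window and occurred in 12.6%, and TATAAA had none and occurred in 12.4%. Both strands were searched, and no motif overlapped another in these windows.

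Cmah, St3gal1 and St8sia2 rose under high stretch, St6gal1 was higher without passing the test, and the enzymes that supply sialic acid did not pass it. All 10 members passed the filter on low counts in both experiments. Under high stretch 3 of them passed edgeR's quasi-likelihood test at an adjusted p under 0.05, all higher, and 3.47% of the 18524 genes tested passed in either direction, 1.31% higher and 2.16% lower. In library-scaled counts the groups did not overlap for 5 members, all higher, against 20.6% of all genes in either direction and 9.97% higher. In TPM the ranges of Cmas (42.8 to 56.4 under high stretch against 36.4 to 53.2) and St6gal1 (42.9 to 60.1 against 30.4 to 44.4) overlapped. St3gal4 (37.2 to 44.0 against 47.9 to 55.4 TPM) and Neu1 (38.9 to 45.1 against 47.3 to 53.7 TPM) were lower there without overlap. The shares over all genes were not taken in TPM. The median log2 fold change was 0.21 over the members and -0.02 over all genes tested. In the same counts under low stretch, the groups did not overlap for 3 members that were higher and 1 that was lower. Over all genes this held for 15.3%, 7.81% higher and 7.47% lower. In TPM the St3gal1 ranges overlapped under low stretch (4.35 to 10.3 against 1.88 to 4.65 TPM). The low-stretch counts describe the comparison that helped to choose the members. The members were chosen with earlier results of these data known, so their high-stretch p-values may not be free of that choice.

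Cmah was higher in every stretched culture than in every unstretched culture of the same experiment. Values are in CPM, counts per M of the library total scaled with TMM factors. In experiment 2, Cmah stood at 0.354, 0.681 and 0.302 CPM in the unstretched cultures and at 3.65, 2.72 and 3.62 CPM under high stretch. The lowest stretched culture was well above the highest unstretched culture. The log2 fold change was 2.94 ± 0.36 (standard error, SE; n = 3 and 3), with an adjusted p of 0.00808 in edgeR's quasi-likelihood test. The rise rested on counts of 55 to 92 per unstretched library and 384 to 902 per stretched library. Leaving out unstretched replicate 1 or stretched replicate 3 of experiment 2 took the edgeR adjusted p to 0.0506 and 0.0619, with log2 fold changes of 2.79 and 2.91.

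In experiment 1, Cmah stood at 1.19, 1.76 and 0.845 CPM without stretch. Under low stretch its lowest, median and highest values were 4.64, 6.00 and 8.57 CPM. The groups did not overlap, and the log2 fold change was 2.33 ± 0.27 (SE; n = 6 and 3), the value by which the gene was picked out. By the well codes in the sample descriptions, each unstretched culture was followed by 2 stretched cultures in experiment 1 and by 1 in experiment 2. Cultures were put into well groups by that order, a grouping inferred here, since no label names a batch. Within the 3 well groups of experiment 1 the ratio of stretched to unstretched Cmah was 4.61, 4.04 and 7.96, and within the 3 well groups of experiment 2 it was 10.3, 4.0 and 12. Since the groups did not overlap in either experiment, all 6 well groups had to show the same direction, which is no separate support.

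**Figure D1:**
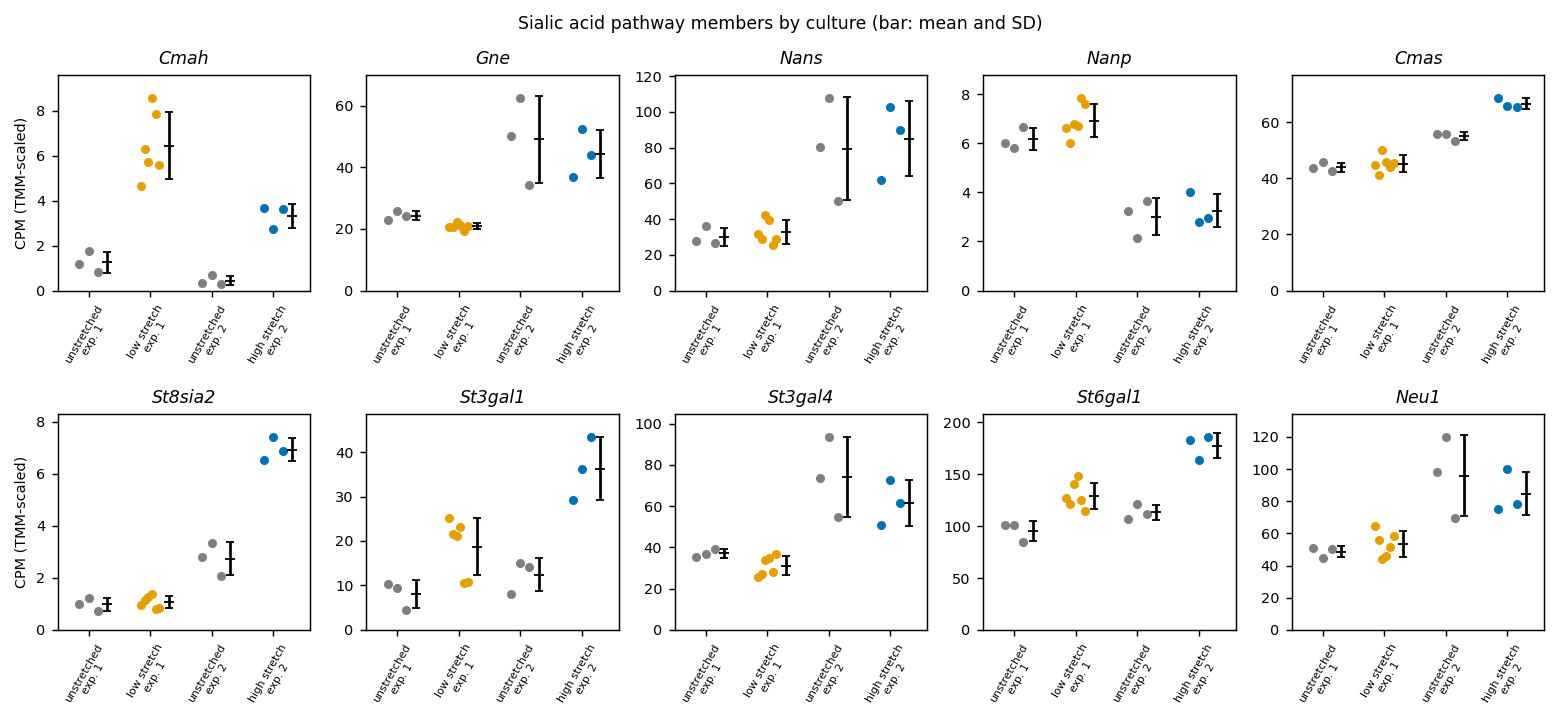
CPM of the 10 members in each culture, with 1 panel per gene and a linear axis from 0. Points are cultures, and the bar beside them gives the mean and SD of each of the 4 groups (n = 3, 6, 3 and 3). In CPM, Cmah, St3gal1 and St6gal1 were higher in every stretched than in every unstretched culture of both experiments. St8sia2 was so under high stretch, where the highest unstretched value was 3.34 CPM and the lowest stretched value 6.52 CPM. In TPM, not drawn here, St3gal1 overlapped between groups in experiment 1 and St6gal1 in experiment 2.

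The deposited transcript table splits Cmah by isoform, and ENSMUST00000224657, the protein-coding form with the downstream start, was listed above 0 under high stretch alone. A retained-intron form from the same start, ENSMUST00000225046, was listed at up to 0.0445 TPM under low stretch and up to 0.043 TPM under high stretch. ENSMUST00000167746 begins at the upstream start and encodes 577 residues. ENSMUST00000224819 begins at the upstream start, lacks some coding exons and encodes 432 residues. ENSMUST00000224657 begins at the downstream start, shares all coding exons of ENSMUST00000167746, and ends in a last exon of 1241 bases where ENSMUST00000167746 has 7515. These were the 3 of 10 transcripts with a mean share of at least 5% of the Cmah TPM.

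ENSMUST00000224657 was listed at 0 in all 12 cultures outside the high-stretch group, and an exact 0 in such a table can be a failed estimate. Under high stretch it stood at 0.981, 0.566 and 0.792 TPM, which was 74.9%, 74.3% and 71.8% of the Cmah level. ENSMUST00000167746 stood at 0.190, 0.167 and 0.174 TPM in the unstretched and 0.159, 0.150 and 0.219 TPM in the high-stretch cultures of experiment 2, and these ranges overlapped. Summed over its transcripts, Cmah stood at 0.190, 0.167 and 0.349 TPM without stretch and at 1.31, 0.762 and 1.10 TPM under high stretch, so most of the added level was listed under the downstream transcript. The depth behind a TPM value is unknown, and the gene was under the planned minimum mean of 1 TPM in experiment 2.

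In limma's test without that filter, the log2 ratio of ENSMUST00000224657 to the other Cmah transcripts was higher by 2.91 ± 0.23 (SE; n = 3 and 3). This ratio used a pseudocount of 0.1 TPM, which sets much of its size where a transcript is listed at 0. ENSMUST00000224657 could enter the test through the high-stretch cultures alone, where it was listed above 0. The p-values that follow therefore describe the same values and are not separate support. The limma adjusted p was 0.0532, above the threshold of 0.05, in a test where 7 of 75523 transcripts (0.00927%) passed. With a pseudocount of 0.01 TPM the limma adjusted p was 0.0212 for a log2 ratio of 5.99, and with 1 TPM it was 0.0507 for 0.77. On the scale of fractions of the Cmah level the limma adjusted p was 0.00103. Leaving out each sample in turn with the pseudocount of 0.1 TPM gave limma adjusted p from 0.039 to 0.27, and 1 of these 6 fits, without unstretched replicate 3 of experiment 2, was under 0.05.

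In experiment 1 the upstream transcripts held most of the Cmah level. ENSMUST00000167746 stood at 0.790, 1.04 and 0.674 TPM without stretch and between 1.26 and 2.13 TPM under low stretch, and these values did not overlap. ENSMUST00000224819, the form that lacks some coding exons, stood at 0.776, 0.165 and 1.02 TPM without stretch and between 0.235 and 0.706 TPM under low stretch, which overlapped. These values come from the comparison that chose the gene and carry no test.

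The 2 deposited tables gave Cmah changes of different size. Mean Cmah CPM was 5.09 times higher under low stretch and mean TPM 1.5 times higher, while under high stretch the ratios were 7.47 and 4.50. The count that the TPM of all Cmah transcripts imply, from annotated lengths and the library total, was set against the gene count. In unstretched cultures of experiment 1 the gene counts of 402, 584 and 265 stood beside implied counts of 2526, 2116 and 2566.

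Under low stretch the gene count was between 0.477 and 0.640 of the implied count, against 0.103 to 0.276 without stretch. In experiment 2 it was 0.883 to 0.952 of the implied count under high stretch, against 0.161 to 0.498 without. The implied count minus the gene count was 1532 to 2301 without stretch and 974 to 2171 under low stretch, so this excess overlapped between groups while the gene count did not. In experiment 2 the excess was 164, 93 and 434 without stretch and 74, 51 and 45 under high stretch, which did not overlap and was lower under stretch. For 8 of the other 9 members the same ratio lay between 0.994 and 1.10 in all cultures, and for Nanp, a short gene, between 0.892 and 1.5. The cause of the gap between the tables for Cmah was not tested. An annotated antisense gene lies within a Cmah intron, and whether it has any part in the gap was not tested. The sources used here did not say which gene annotation or strand was counted, or how reads with several matches were treated.

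**Figure D2:**
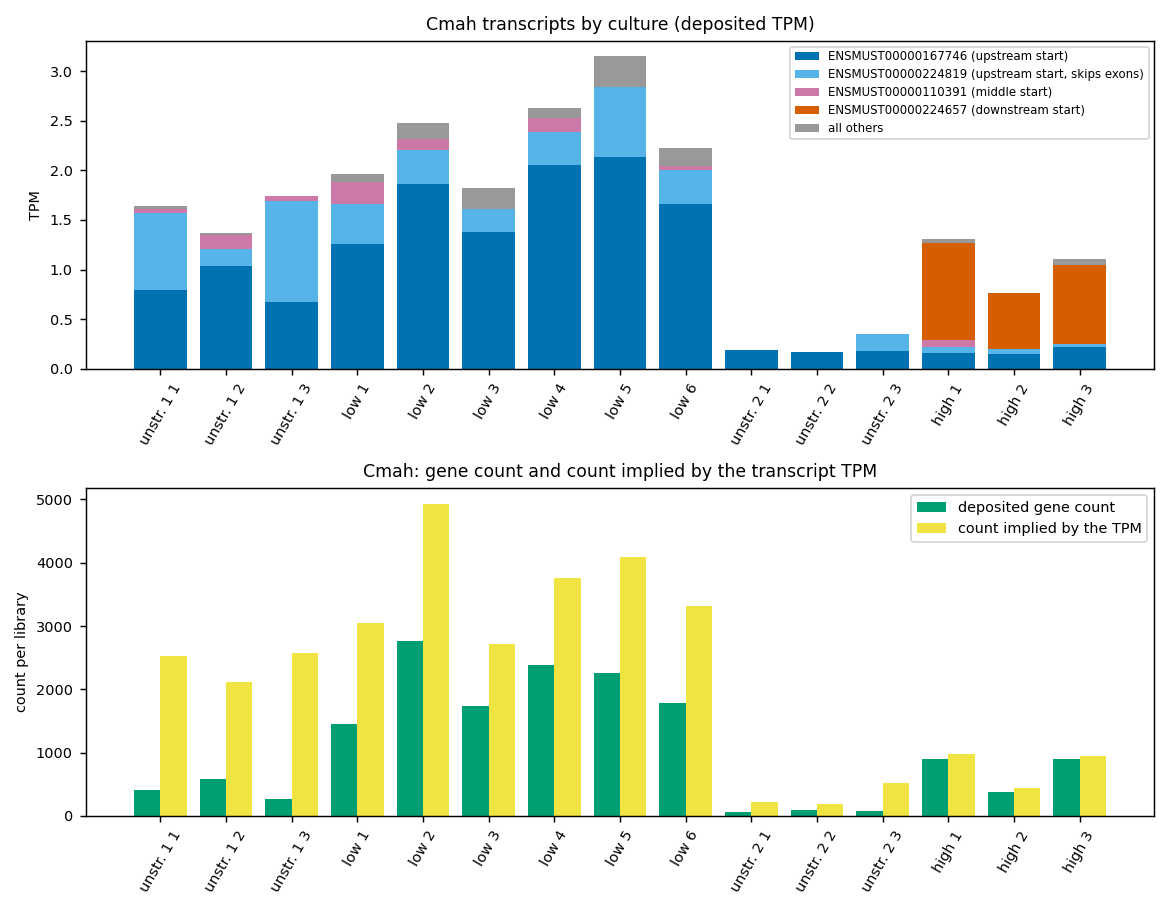
Upper panel: TPM of Cmah transcripts in each culture, stacked by isoform on a linear axis. Lower panel: the deposited Cmah count and the count implied by the TPM, per library. ENSMUST00000224657, the protein-coding downstream transcript, appears under high stretch alone, at 0.566 to 0.981 TPM, and the 2 bars of the lower panel are nearest each other in those 3 cultures.

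The enzymes that make and activate sialic acid showed small differences under stretch. None of Gne, Nans, Nanp and Cmas passed edgeR's test under high stretch. Cmas, the CMP-sialic acid synthetase, stood at 55.9, 55.9 and 53.3 CPM without stretch and at 68.7, 65.7 and 65.3 CPM under high stretch. These CPM values did not overlap, yet the log2 fold change of 0.29 ± 0.15 (SE) had an edgeR adjusted p of 0.445. In TPM the groups overlapped, at 42.8 to 56.4 under high stretch against 36.4 to 53.2. In experiment 1 Cmas was 43.8, 45.7 and 42.5 CPM without stretch and had a lowest, median and highest value of 41.0, 45.2 and 50.1 CPM under low stretch, a full overlap.

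Gne encodes the bifunctional epimerase and kinase that starts the pathway. It stood at 22.9, 25.8 and 24.2 CPM without stretch in experiment 1 and had a lowest, median and highest value of 19.3, 20.7 and 22.3 CPM under low stretch. All stretched cultures were below all unstretched ones, with a log2 fold change of -0.23 ± 0.08 (SE). In experiment 2 Gne was 50.3, 62.6 and 34.4 CPM without stretch and 36.9, 52.5 and 43.9 CPM under high stretch, which overlapped. Its log2 fold change there was -0.12 ± 0.24 (SE), edgeR adjusted p 0.916.

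Nans, the synthase that joins the sugar to phosphoenolpyruvate, stood at 80.5, 108 and 50.0 CPM without stretch and 62.1, 103 and 90.1 CPM under high stretch. Nanp, the phosphatase of the next step, stood at 3.24, 2.16 and 3.64 CPM without stretch and 4.03, 2.78 and 2.95 CPM under high stretch. Both sets of groups overlapped. The log2 fold changes were 0.12 ± 0.30 (SE) for Nans (edgeR adjusted p 0.939) and 0.13 ± 0.28 (SE) for Nanp (edgeR adjusted p 0.929). In experiment 1 both also overlapped between groups, with log2 fold changes of 0.11 for Nans and 0.16 for Nanp.

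Among the sialyltransferases, St3gal1, St6gal1 and St8sia2 differed between groups in CPM without overlap under high stretch, and St3gal4 did not. St3gal1 (ENSMUSG00000013846) lies at chr15:67102875-67176830 on the minus strand of GRCm38 and caps core O-glycans with sialic acid. It stood at 8.16, 15.1 and 14.1 CPM without stretch in experiment 2 and at 29.2, 36.2 and 43.4 CPM under high stretch. The groups were apart, with a log2 fold change of 1.55 ± 0.28 (SE), edgeR adjusted p 0.0263. The edgeR adjusted p rose above 0.05 without unstretched replicate 1 (0.0915) and without stretched replicate 1, 2 or 3 (0.0849, 0.0624 and 0.144), while the log2 fold change stayed between 1.31 and 1.72 over all 6 such fits.

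In experiment 1 St3gal1 stood at 10.4, 9.50 and 4.49 CPM without stretch, and its lowest, median and highest values under low stretch were 10.6, 21.4 and 25.1 CPM. In CPM the groups met closely but did not overlap, with a log2 fold change of 1.19 ± 0.35 (SE). In TPM they overlapped, at 4.35 to 10.3 under low stretch against 1.88 to 4.65. The low values came from a single well group: low-stretch replicates 5 and 6 at 10.6 and 10.8 CPM sat beside the unstretched culture at 4.49 CPM. Within well groups the ratio of stretched to unstretched St3gal1 was 2.24, 2.33 and 2.38 in experiment 1, and 3.58, 2.39 and 3.07 in experiment 2. The spread between well groups was thus larger than the spread of the ratios within them.

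St8sia2 (ENSMUSG00000025789), at chr7:73939119-74013690 on the minus strand of GRCm38, encodes a polysialyltransferase that builds long sialic acid chains on the adhesion molecule Ncam1. It stood at 2.80, 3.34 and 2.07 CPM without stretch in experiment 2 and at 6.52, 7.42 and 6.87 CPM under high stretch. The stretched cultures were close together and all above the unstretched ones. The log2 fold change was 1.36 ± 0.24 (SE), edgeR adjusted p 0.0237. That adjusted p was 0.125 without unstretched replicate 1 and 0.0992, 0.0687 and 0.124 without stretched replicate 1, 2 or 3, with log2 fold changes of 1.23 to 1.54 over the 6 fits.

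In experiment 1 St8sia2 was near 1 CPM in both groups. It stood at 0.998, 1.21 and 0.727 CPM without stretch, and its lowest, median and highest values under low stretch were 0.820, 1.06 and 1.38 CPM. The groups overlapped, and the log2 fold change was 0.13 ± 0.22 (SE). Within well groups the ratio was 1.06, 1.10 and 1.15 in experiment 1 and 2.33, 2.22 and 3.32 in experiment 2.

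St6gal1, which sialylates the galactose ends of N-glycans, was higher under stretch in both experiments by a smaller step. In experiment 2 it stood at 107, 121 and 112 CPM without stretch and at 183, 164 and 186 CPM under high stretch. In CPM the groups did not overlap, while in TPM they did, at 42.9 to 60.1 under high stretch against 30.4 to 44.4. The log2 fold change of 0.67 ± 0.16 (SE) had an edgeR adjusted p of 0.0652. The adjusted p was 0.0174 in DESeq2 and 0.00626 in edgeR with all 15 samples in the fit, and without unstretched replicate 3 of experiment 2 it was 0.0275 in edgeR. In edgeR it was 0.067 with RLE size factors, 0.0682 without a filter and 0.0642 with the replicate block. Of the 6 fits that each left out 1 sample, 1 was under 0.05, and the highest edgeR adjusted p was 0.353. In experiment 1 St6gal1 stood at 101, 101 and 84.5 CPM without stretch, and its lowest, median and highest values under low stretch were 115, 126 and 148 CPM. Those groups did not overlap either, with a log2 fold change of 0.43 ± 0.10 (SE).

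St3gal4, which caps N-glycans and glycolipids, stood at 73.6, 93.5 and 54.8 CPM without stretch and at 50.7, 72.7 and 61.3 CPM under high stretch. These CPM values overlapped, with a log2 fold change of -0.25 ± 0.23 (SE), edgeR adjusted p 0.771. In TPM St3gal4 was lower without overlap, at 37.2 to 44.0 under high stretch against 47.9 to 55.4. In experiment 1 it was 35.1, 36.9 and 39.3 CPM without stretch and had a lowest, median and highest value of 25.8, 31.1 and 36.8 CPM under low stretch, which overlapped, with a log2 fold change of -0.26.

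Neu1, the lysosomal sialidase, stood at 98.1, 120 and 69.7 CPM without stretch and at 75.3, 100 and 78.5 CPM under high stretch. These CPM values overlapped, with a log2 fold change of -0.16 ± 0.23 (SE), edgeR adjusted p 0.882. In TPM Neu1 was lower without overlap, at 38.9 to 45.1 under high stretch against 47.3 to 53.7. In experiment 1 Neu1 was 51.0, 44.8 and 50.3 CPM without stretch and had a lowest, median and highest value of 44.1, 53.6 and 64.6 CPM under low stretch, also overlapping, with a log2 fold change of 0.13. In Gne, Nans, St3gal4 and Neu1 alike, unstretched replicate 2 of experiment 2 was the highest of its group and replicate 3 the lowest.

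The difference between the high-stretch and low-stretch effects was tested over all 15 samples. None of the 22015 genes tested (0.0%) passed in edgeR, where 547 genes had an unadjusted p under 0.05. DESeq2 also called none, with 785 genes at an unadjusted p under 0.05. The effect on St8sia2 was larger under high stretch by 1.21 ± 0.32 (SE) on the log2 scale, with an unadjusted p of 0.00169 and 1.0 after edgeR's adjustment. For Cmah the difference was 0.57 ± 0.42 (SE), edgeR adjusted p 1.0. A different response of any member at the 2 amplitudes was therefore not shown, and for Cmah the contrast holds the low-stretch samples that chose it.

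The unstretched cultures of the 2 experiments differed from each other in most members. Of the 10, 7 passed edgeR's test between them, 5 higher and 2 lower in experiment 2, but 62.5% of the 20707 genes tested passed as well, 29.7% higher and 32.7% lower. Cmah was lower in experiment 2, at a log2 fold change of -1.53 ± 0.41 (SE; edgeR adjusted p 0.012), and without unstretched replicate 1 of experiment 2 the adjusted p was 0.0515 for a log2 fold change of -1.38. Nanp had a log2 fold change of -1.05 (edgeR adjusted p 0.00726). Gne, Nans, St8sia2, St3gal4 and Neu1 were higher in experiment 2, with log2 fold changes from 0.96 for Neu1 to 1.47 for St8sia2. Experiment and everything that came with it cannot be told apart. Cmas did not pass (edgeR adjusted p 0.107, and 0.0377 without unstretched replicate 3 of experiment 2), and its direction depended on the unit: its mean was 55 against 44.0 CPM, but 43.3 against 50.7 TPM. St6gal1 also did not pass (edgeR adjusted p 0.255), and its mean was 113 against 95.4 CPM but 35.4 against 44.6 TPM. The 7 members that passed kept their direction in TPM, where the 5 rises were smaller and the 2 falls larger. Mean Gne was 49.1 against 24.3 CPM but 22.5 against 16.7 TPM, and mean Cmah 0.446 against 1.27 CPM but 0.235 against 1.58 TPM.

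Levels of different genes were compared in TPM, which accounts for transcript length. In unstretched cultures of experiment 1 the order of mean TPM was Cmas (50.7), St6gal1 (44.6), St3gal4 (37.2), Neu1 (37.0), Nans (28.5), Gne (16.7), Nanp (7.13), St3gal1 (3.54), Cmah (1.58) and St8sia2 (0.356). Of these neighbours, St3gal4 and Neu1 had overlapping ranges. Under low stretch St6gal1 at 55.4 TPM stood above Cmas at 47.7 TPM, with ranges apart, and St3gal1 at 7.75 TPM overlapped with Nanp at 7.42 TPM. Cmah at 2.38 TPM and St8sia2 at 0.386 TPM held the last places.

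In unstretched cultures of experiment 2 the top of the order was St3gal4 (50.7 TPM), Neu1 (49.8 TPM), Nans (48.7 TPM), Cmas (43.3 TPM) and St6gal1 (35.4 TPM), where each overlapped with the next. Gne followed at 22.5 TPM, then St3gal1 at 3.98 TPM and Nanp at 2.24 TPM, which overlapped, St8sia2 at 0.640 TPM and Cmah at 0.235 TPM. Under high stretch St6gal1, Nans, Cmas, Neu1 and St3gal4 lay between 40.4 and 52.1 TPM, each overlapping with the next. St3gal1 at 11.1 TPM stood clear of Nanp at 2.61 TPM, St8sia2 reached 1.77 TPM and Cmah 1.06 TPM. Cmah and St8sia2 were thus the lowest members in all 4 groups. Ranked by CPM per kilobase of exon, over all samples, Cmas moved from the second place to the fifth and Cmah from the ninth to the tenth.

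The rest of the pathway was read from lists that hold 57 genes with the members included. Outside the members, 37 list genes were tested under high stretch, of which 1 rose and 2 fell, and 40 under low stretch, of which 3 rose and 3 fell. Over all genes, 1.31% rose and 2.16% fell under high stretch, and of the 21672 genes tested under low stretch 5.45% passed, 1.85% higher and 3.6% lower. With a block on the well groups, 6106 of these 21672 genes were called under low stretch, against 1181 without it. The list genes called were then 24 in place of 8, counts that include members as a description alone. The median log2 fold change of the list genes outside the members was -0.02 under high and -0.03 under low stretch, beside -0.02 and 0.01 over all genes. St6gal2, St6galnac1, St8sia3, St8sia4, St8sia5, St8sia6 and Neu4 were too low to be tested in either experiment.

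St8sia1, which makes disialogangliosides, was the other St8sia gene tested. It stood at 0.258, 0.378 and 0.357 CPM without stretch in experiment 2 and at 2.04, 1.23 and 1.00 CPM under high stretch, with a log2 fold change of 2.13 ± 0.36 (SE), edgeR adjusted p 0.0217. In experiment 1 it stood at 0.540, 0.779 and 0.297 CPM without stretch and at 1.06 to 2.32 CPM under low stretch, with a log2 fold change of 1.74 ± 0.35 (SE), edgeR adjusted p 0.0186. Neither pair of groups overlapped in CPM, while in TPM those of experiment 1 did, at 0.230 to 0.623 under low stretch against 0.123 to 0.307. The edgeR adjusted p under high stretch was 0.109 without unstretched replicate 1 and 0.0813 and 0.0651 without stretched replicate 1 or 3, and under low stretch it was 0.0806 and 0.0792 without unstretched replicate 1 or 3 of experiment 1.

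Neu2, a cytosolic sialidase, fell in both experiments from a very low level. It stood at 0.535, 0.311 and 0.440 CPM without stretch in experiment 2 and at 0.0971, 0.0284 and 0.0363 CPM under high stretch. The log2 fold change was -2.90 ± 0.50 (SE), edgeR adjusted p 0.0237. In experiment 1 it went from 0.215, 0.199 and 0.246 CPM to between 0.00959 and 0.0860 CPM, with a log2 fold change of -1.99 ± 0.38 (SE), edgeR adjusted p 0.0165. All stretched cultures were below all unstretched ones. The edgeR adjusted p under high stretch was 0.1 without unstretched replicate 1 and 0.0661 and 0.148 without stretched replicate 2 or 3, and under low stretch it was 0.0618 and 0.0834 without unstretched replicate 1 or 3.

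St6galnac2, which adds sialic acid to O-glycan cores, stood at 42.7, 43.1 and 56.9 CPM without stretch and at 18.8, 24.7 and 24.5 CPM under high stretch. Its log2 fold change was -1.06 ± 0.20 (SE), edgeR adjusted p 0.0339. Under low stretch the groups overlapped, at 15.4 to 34.6 CPM against 34.0 to 46.1 CPM, and the edgeR adjusted p was 0.0874 for a log2 fold change of -0.65. It was 0.0407 in DESeq2 and 0.00923 in edgeR with a block on the well groups, and above 0.05 in all 9 fits that each left out 1 sample. A second annotated gene of the same symbol overlaps this one, so its count is uncertain. The high-stretch call was lost without unstretched replicate 1 (edgeR adjusted p 0.114) or stretched replicate 1, 2 or 3 (0.157, 0.0923 and 0.173).

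Renbp, an epimerase that acts on a sugar precursor of the pathway, stood at 55.5, 51.5 and 54.2 CPM without stretch and at 66.9 to 80.3 CPM under low stretch. The groups were apart, with a log2 fold change of 0.45 ± 0.07 (SE), edgeR adjusted p 0.00826. In experiment 2 Renbp overlapped between groups in CPM, with a log2 fold change of 0.48 ± 0.28 (SE), edgeR adjusted p 0.555. In TPM it did not, at 134 to 168 under high stretch against 92.2 to 125. The low-stretch edgeR adjusted p was 0.0513 without unstretched replicate 3 of experiment 1 and 0.233 with all 15 samples in the fit. Gcnt4, a branching enzyme of O-glycans, stood at 0.115 to 0.166 CPM without stretch and fell to between 0.0313 and 0.0896 CPM under low stretch, a log2 fold change of -1.37 with an edgeR adjusted p of 0.0329, and it was too low to be tested in experiment 2. The Gcnt4 call was lost with all 15 samples in the fit (edgeR adjusted p 0.165) and in 5 of 9 fits that each left out 1 sample, which took the edgeR adjusted p to 0.124, 0.0898 and 0.0798 without unstretched replicates 1 to 3 and 0.0606 and 0.0711 without low-stretch replicates 1 and 2.

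Carriers of sialic acid and their linkers made up the list with 2 calls under low stretch. Ncam1, the main carrier of polysialic acid, stood at 95.1, 84.0 and 84.9 CPM without stretch and at 122 to 148 CPM under low stretch. The log2 fold change was 0.64 ± 0.09 (SE), edgeR adjusted p 0.00512. In experiment 2 Ncam1 stood at 65.9, 66.4 and 90.5 CPM without stretch and at 161, 116 and 175 CPM under high stretch, without overlap. In TPM the groups overlapped, at 34.5 to 56.9 under high stretch against 20.5 to 37.3. The log2 fold change of 1.03 ± 0.23 (SE) had an edgeR adjusted p of 0.0523. The adjusted p was 0.0474 with RLE size factors, 0.00855 without a filter, 0.00229 with all 15 samples and 0.00529 without unstretched replicate 3 of experiment 2 in edgeR, and 0.002 in DESeq2. Of the 6 edgeR fits that each left out 1 sample, 1 was under 0.05. The highest edgeR adjusted p over all alternatives was 0.252.

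Ezr, the linker that ties podocalyxin to actin, stood at 619, 651 and 694 CPM without stretch and at 347 to 490 CPM under low stretch. It fell by 0.60 ± 0.11 (SE) on the log2 scale, with an edgeR adjusted p of 0.0127, which was 0.0784 without unstretched replicate 3. Under high stretch its values were 585, 657 and 631 CPM against 1070, 1090 and 867 CPM, also apart, with a log2 fold change of -0.67, edgeR adjusted p 0.0836. That adjusted p was 0.0372 in DESeq2, 0.00936 in edgeR with all 15 samples and 0.0141 without unstretched replicate 3 of experiment 2. Of the 6 edgeR fits that each left out 1 sample, 1 was under 0.05. The highest edgeR adjusted p over all alternatives was 0.377. Podxl itself stood at 165, 162 and 165 CPM without stretch and at 95.7 to 153 CPM under low stretch, without overlap, with a log2 fold change of -0.43, edgeR adjusted p 0.0762. Under high stretch the groups did not overlap in CPM either, with a log2 fold change of -0.32, edgeR adjusted p 0.471. In TPM they did, at 27.7 to 37.8 under high stretch against 35.1 to 64.3.

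**Figure D3:**
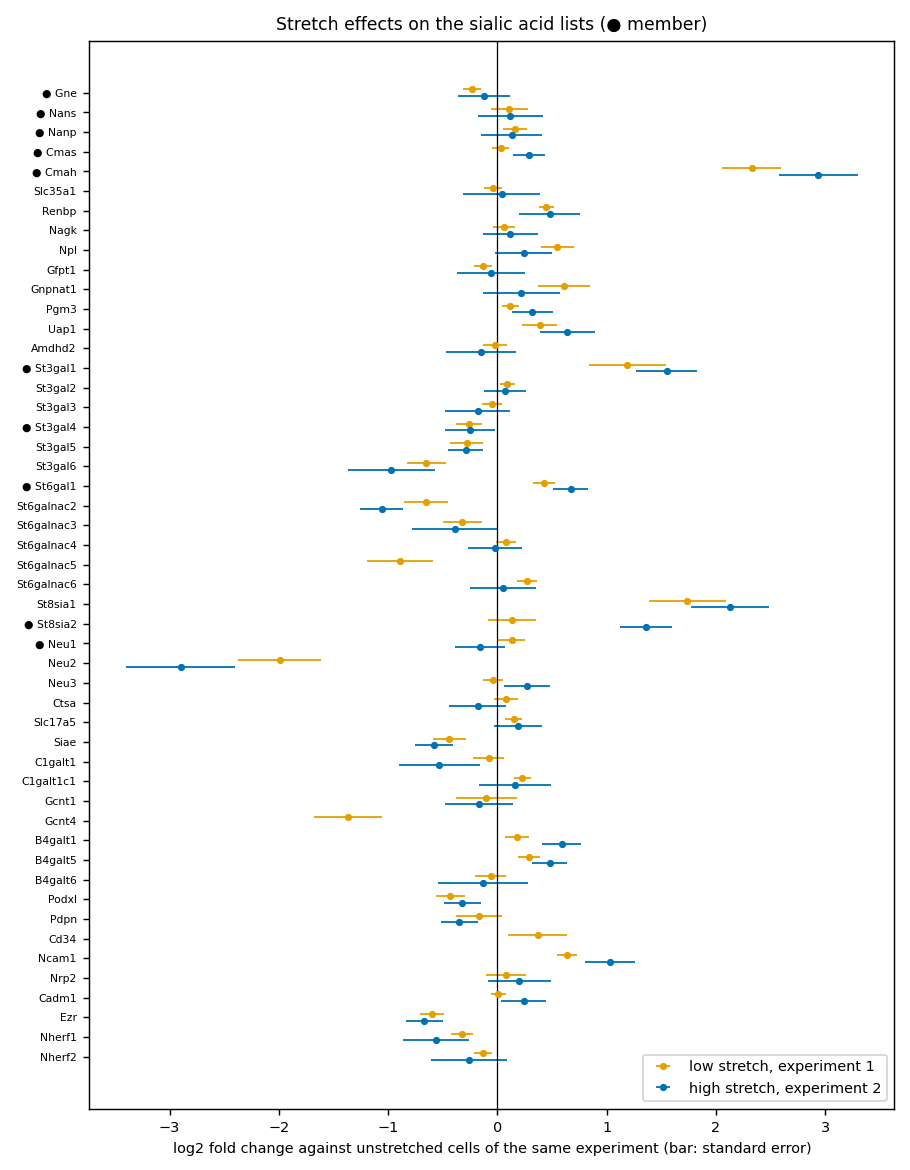
Log2 fold change of each list gene tested, with its standard error, for low stretch against no stretch in experiment 1 (n = 6 and 3) and high stretch against no stretch in experiment 2 (n = 3 and 3). Filled circles before a name mark the 10 members. Cmah at 2.33 and 2.94, St8sia1 at 1.74 and 2.13 and Neu2 at -1.99 and -2.90 lie farthest from 0 in both.

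The 3 genes of each list with the highest mean TPM over the 15 samples were described by their group means, since the order within some lists differed between groups. St3gal5, which makes the ganglioside precursor of the St8sia1 product, was the most abundant alpha-2,3 sialyltransferase in each group, with means of 89.9 to 140 TPM, followed by St3gal2 at 60.5 to 74.0 TPM and St3gal4 at 29.8 to 50.7 TPM. In the alpha-2,6 list St6gal1 had the highest mean under low (55.4 TPM) and high stretch (52.1 TPM). Without stretch it stood at 44.6 TPM beside St6galnac2 at 45.2 TPM in experiment 1, and at 35.4 TPM below St6galnac6 at 44.6 TPM in experiment 2.

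The alpha-2,8 list was low throughout. St8sia2 led it in 3 groups, and under low stretch St8sia1 had a mean of 0.439 TPM beside 0.386 TPM for St8sia2. St8sia4 was under 0.05 TPM in all cultures. In the removal list, Ctsa, the protease that protects Neu1 in the lysosome, had group means of 272 to 378 TPM, and Neu1 was second at 37.0 to 49.8 TPM. The esterase Siae averaged 13.5 TPM over the 15 samples.

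Among the enzymes of precursor supply, Nagk (107 to 143 TPM) and Renbp (86.0 to 150 TPM) had the highest 2 means in every group, with Renbp above Nagk in both stretched groups. Amdhd2 averaged 66.1 TPM over the 15 samples. In the synthesis list, the transporter Slc35a1, which carries the activated sugar into the Golgi, had means of 27.4 and 24.9 TPM in experiment 1 and 9.37 and 9.04 TPM in experiment 2, unstretched group first. In the acceptor glycan list C1galt1c1 (24.6 and 26.6 TPM) and C1galt1 (20.2 and 17.7 TPM) were highest in experiment 1, and B4galt5 (11.3 and 15.2 TPM) in experiment 2. Ezr (254 to 465 TPM) and Pdpn (196 to 267 TPM) led the list of sialylated proteins and linkers in each group, and Nherf1 averaged 87.3 TPM over all samples.

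**Figure D4:**
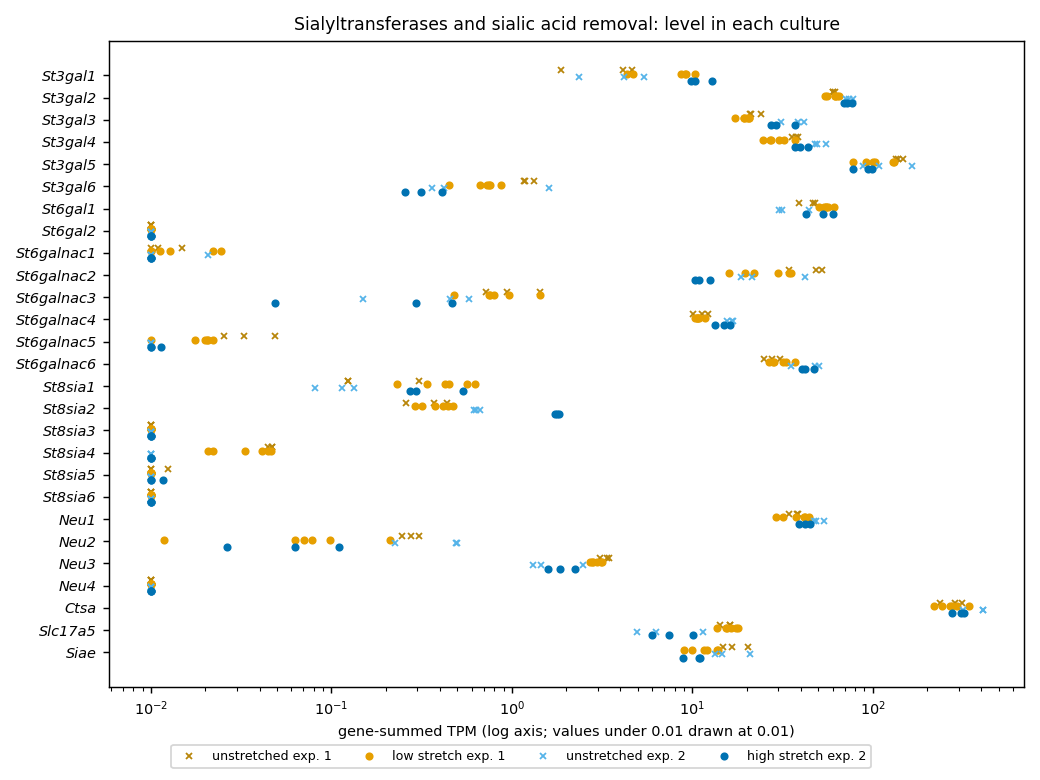
Gene-summed TPM of sialyltransferases and of genes for sialic acid removal in each of the 15 cultures, on a log axis with values under 0.01 TPM drawn at 0.01. Crosses are unstretched and circles stretched cultures. Among the St8sia genes, St8sia2 under high stretch stands highest, at 1.73 to 1.82 TPM against 0.618 to 0.669 TPM without stretch.

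The genes most like Cmah in pattern were taken by Pearson correlation of log2 CPM over the 15 samples, after subtracting the unstretched mean of each experiment, among 12935 other genes with a mean of at least 1 CPM. They were Fam171a1 (r = 0.974), Fam189a1 (0.971), Pxylp1 (0.971), Il1rl1 (0.967) and Fn1 (0.965). Il1rl1, an interleukin receptor, had mean levels of 15.6 CPM without and 78.7 CPM with low stretch, and 10.1 CPM without and 63.6 CPM with high stretch. Fn1, which encodes fibronectin, had mean levels of 3000 and 5810 CPM in experiment 1 and 3480 and 9980 CPM in experiment 2. The samples share their libraries and the contrast of stretched with unstretched cultures, so these values describe a shared pattern over groups. Over deviations from the 4 group means, r was 0.563 for Fam171a1, 0.811 for Fam189a1, 0.690 for Pxylp1, 0.644 for Il1rl1 and 0.744 for Fn1. Among the members, St6gal1 was the nearest to Cmah, with r = 0.947 and the rank 14 among these genes, followed by St3gal1 with r = 0.83 and the rank 323.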

How the data were processed

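Gene counts and transcript levels of 15 cultures were used. Raw counts of 55416 Ensembl genes make up the deposited gene table, and the transcript table holds TPM values that the authors deposited for 140789 transcripts, without depth. The submitters' processing notes name STAR 2.7.5c, featureCounts, Subread 2.0.0, DESeq2 1.38.3, Salmon 1.9.0 and the build mm39, with no role or order. The annotation, the strand setting and whether a pair was counted once were not given in the sources used here. Symbols, lengths and the coordinates printed come from GENCODE M21 on GRCm38, matched by identifier to 137189 transcripts, and no coordinates were converted.

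edgeR 4.0.16 (R 4.3.3) was used for genes (TMM, filterByExpr, quasi-likelihood F test, Benjamini-Hochberg over all genes tested, threshold 0.05). Stretch effects were fitted within each experiment, the difference between effects with all 15 samples, and the unstretched groups with each other. The standard error is the size of the log2 fold change over the root of F. CPM used TMM factors over 15 samples. Cmah transcript usage was tested with limma 3.58.1 on log2 ratios with a pseudocount of 0.1 TPM. The planned filter needed a gene mean of 1 TPM and a mean share of 0.05 to 0.95, and since no Cmah transcript passed it in experiment 2, the test was run without it, a choice made after the data were seen. The implied count was the sum of TPM times annotated transcript length, as a share of that sum over all transcripts, times the library total. The gene tests, and the usage test with its planned filter, were checked on simulated data with 200 changes of 2 on the log2 scale. The gene tests recovered 72.6% to 90.2% of those tested, with 5 to 11 false calls. The usage test recovered 100%, with 22 false calls, at a fixed simulated spread that was set by choice and not estimated from the data. That rate therefore does not carry over to transcripts that vary more. The usage test without the filter, as used for Cmah, was not checked in this way.

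The members and lists were chosen with earlier results of these data known. Named genes were the 10 members, list genes with an adjusted p under 0.05 in either stretch comparison, the 3 highest of each list by TPM and the 5 genes most like Cmah. Ncam1, Ezr, Podxl, Renbp and St6galnac2 were also given in the comparison they did not pass, and Podxl was added after its values were seen. The lists covered synthesis, precursor supply, alpha-2,3, alpha-2,6 and alpha-2,8 sialyltransferases, removal, acceptor glycans, and sialylated proteins with their linkers. Alternatives were RLE size factors, DESeq2 1.42.0, other filters, all samples in the fit, blocks on replicate number or on well groups inferred from the order of the well codes, each sample left out, other pseudocounts and other measures of likeness. Replicate numbers in the titles are not stated to pair cultures. A single podocyte marker of the planned list is not reported here.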

Additional observations from a re-analysis of the deposited data

How the results depend on the processing

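Under RLE size factors, DESeq2, other filters, all 15 samples and the replicate block, Cmah, St3gal1 and St8sia2 kept an adjusted p under 0.05 under high stretch. The number of genes called under high stretch, 643, became 1315 with DESeq2, 1488 with all 15 samples, 414 at a mean count of at least 100, 1050 without a filter and 14 to 1421 when each sample was left out (14 without stretched replicate 3, 1421 without unstretched replicate 3). Under low stretch 1181 became 2702 with DESeq2, 640 with all 15 samples, 6106 with a block on the well groups and 220 to 1630 when each sample was left out (220 without unstretched replicate 3). List genes called under high stretch, 6, became 12 with all 15 samples and 0 to 11 when samples were left out. Under low stretch 8 became 13 with DESeq2, 24 with the well-group block and 2 to 11 when samples were left out. These low-stretch counts include members, as a description alone. The well-group block called 3 genes for the difference between effects.

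With a replicate block, 1546 genes were called under high and 490 under low stretch. Same-numbered cultures had correlations of deviations from -0.44 to 0.365 in experiment 1 and from -0.163 to 0.45 in experiment 2, so the numbers were not taken to pair cultures. In experiment 2 the same-numbered cultures were also the inferred well groups. There the replicate block was the same as a block on well groups. Within the inferred well groups the mean correlation was 0.438 in experiment 1, from 0.328 to 0.57 over 6 pairs, against -0.218 for other pairs, and 0.176 against -0.0952 in experiment 2. Under the replicate block the low-stretch edgeR adjusted p was 0.092 for Renbp, 0.168 for Gcnt4 and 0.0731 for Neu2, and the high-stretch one 0.00132 for Ncam1. With this block the limma adjusted p of the downstream Cmah transcript was 0.309.

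Signs changed for members whose effects were within 2 standard errors of 0. In fits that left out 1 sample, the high-stretch log2 fold change ranged from -0.29 to 0.10 for Gne, -0.10 to 0.41 for Nans, -0.07 to 0.32 for Nanp and -0.31 to 0.04 for Neu1. The low-stretch one ranged from -0.05 to 0.32 for St8sia2 and from -0.0 to 0.08 for Cmas. The difference between effects ranged from -0.06 to 0.29 for Gne, -0.20 to 0.26 for Nans, -0.25 to 0.17 for Nanp and -0.15 to 0.19 for St3gal4. It was 0.02 for Nans and 0.02 for St3gal4 with the well-group block, and 0.05 for Nanp and 0.13 for St3gal4 with the replicate block. Of the 5 genes most like Cmah, 2 were shared under Spearman correlation and 2 under deviations from group means. A block on well groups could not be fitted between the unstretched groups, and a mean count of at least 100 and all 15 samples were not run there. A gene minimum of 5 TPM left no Cmah transcript to test. The causes of these shifts were not tested. Neu2 and Gcnt4 were under 1 CPM in all cultures, where depth limits precision.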
